A study of Mus musculus with 26 samples.

Results

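Glutathione transferases, glutathione peroxidases and peroxiredoxins are the enzymes with which a cell conjugates reactive, electrophilic compounds and removes peroxides. They were chosen as the genes whose symbol starts with Gst, or with Gpx or Prdx followed directly by a digit, leaving out the 2 symbols that contain -ps. This gave 38 of the 39017 genes in the deposited tables, 22 of them Gst, 8 Gpx and 8 Prdx. Glutathione transferases join the thiol of glutathione to electrophiles such as the aldehydes formed when lipids are oxidized, and their classes, named by Greek letters, differ in substrate and in place within the cell. Glutathione peroxidases reduce hydrogen peroxide and lipid peroxides with glutathione, several of them through a selenocysteine, whereas peroxiredoxins use a cysteine that most of them regenerate with thioredoxin. Fat cells store large amounts of lipid, and these enzymes are known there for handling lipid peroxides and their aldehyde products.

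The epididymal fat of male wild type C57BL/6J mice was digested and spun into floating adipocytes and a pellet of stromal vascular cells (SVC), the pellet was treated with red cell lysis buffer, and the RNA of both was sequenced. The diets began at 9 to 10 weeks of age. LFD mice were fed 10% fat for 12 weeks, HFD mice 60% fat for 12 weeks, and SW mice the HFD for 9 weeks and then the LFD for 3 weeks, to ask what differs in obese mice and still differs after weight loss. The usable columns were 9 adipocyte libraries, 3 per diet, and 6 SVC libraries, with 1 from LFD, 2 from HFD and 3 from SW mice. By the labels, HFD SVC replicates 1 and 3 had single runs alone, while each SW SVC replicate had paired-end and single runs. All adipocyte records of SW mice were paired-end, while HFD replicate 3 and LFD replicates 2 and 3 also had single runs. The columns do not state which runs they hold, so run type cannot be told apart from diet or fraction here and was not tested. Levels are given as CPM (counts in a library of 1000000) scaled within a fraction by TMM factors, with the libraries of a group in the order of their numbers. These are 404, 405 and 406 for LFD, 401, 402 and 403 for HFD and 407, 408 and 409 for SW adipocytes, and 236 for LFD, 212 and 411 for HFD and 412, 413 and 414 for SW SVC. Group values are means ± SD with n = 3. A gene was called changed where edgeR's quasi-likelihood test gave an adjusted p-value under 0.05 over all genes that passed a filter on low counts. The columns do not state that each library comes from a separate animal, so the p-values measure the spread between these libraries.

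The 2 SVC libraries of HFD mice stood apart from each other. Their chi-square per degree of freedom, which would be 1 for counting noise alone, was 376, against 25.5 to 59.9 for the pairs of SW libraries. Mitochondrial transcripts made up 6.34% of the counts in HFD 212 (95% Wilson interval 6.32% to 6.35%) and 33.5% in HFD 411 (33.4% to 33.5%). Hemoglobin transcripts made up 0.287% in HFD 212 (0.284% to 0.290%) and 3.09% in HFD 411 (3.09% to 3.10%). These intervals, like all others here, cover counting error only. Among the adipocytes, SW 407 differed from SW 408 and SW 409 with 89.5 and 80.4 per degree of freedom, while those 2 differed from each other with 12.8. Libraries without which a call was lost are named below, each left out alone, with the range of the log2 fold change and the adjusted p-values in the same order. Other settings that ended a call follow it, among them a correction for GC content, no filter on low counts and a fit of the compared groups alone.

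The labelled fractions were checked against marker genes. All 8 adipocyte markers tested were called higher in adipocytes than in SVC in both HFD and SW mice, but so were 4 of 5 endothelial markers, with a median of 1.53 in HFD and 1.29 in SW mice. Of 11 macrophage markers 10 were called lower in adipocytes than SVC in SW mice and 4 in HFD mice. In adipocyte libraries the sum of the adipocyte markers, led by Fabp4, lay between 36795 and 47350 CPM in LFD, 18306 and 26746 CPM in HFD and 31071 and 33660 CPM in SW mice. In the SVC, led by Lpl, it was 1003 CPM in the LFD library, 4916 and 2488 CPM in the HFD libraries and 1403, 1383 and 1311 CPM in the SW libraries. Of these markers Lpl, at 3656 and 1565 CPM, Fabp4, at 1059 and 529 CPM, and Lep were higher in both HFD SVC libraries than in the others, while Plin1, Lipe and Pnpla2 were lowest in both and Adipoq and Cidec were lowest in HFD 212. Macrophage markers were also present among the adipocytes, with a sum of 607 to 1026 CPM in LFD, 7553 to 8809 CPM in HFD and 5554 to 8211 CPM in SW libraries. In bulk RNA, fewer cells of a type and less RNA per cell cannot be told apart.

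In adipocytes 29 of the 38 genes passed the filter on low counts. Between HFD and LFD mice 2 of the 29 were called higher in HFD, where 26.5% of all 14461 genes tested were, and 21 were called lower, where 25.0% of all genes were. Their median log2 fold change was -1.13, against -0.03 for all genes tested. Between SW and HFD mice 17 were called higher in SW (15.6% of all genes) and 0 lower (15.9% of all genes), with a median of 0.83 against 0.01. Fits by DESeq2 and limma-voom also called 0 lower, and by edgeR 20 of the 29 were higher and 0 lower at an unadjusted p-value under 0.05. Between SW and LFD mice 2 were called higher (10.9% of all genes) and 3 lower (6.18% of all genes), with a median of -0.12 against 0.00. These comparisons share libraries and are not independent of each other. Upper-quartile scaling moved the median of all genes between HFD and LFD to -0.12 and that of these genes to -1.22, with 1 called higher and 22 lower. Without HFD 403, 11 were called between SW and HFD mice, and without SW 407, 16 were. Between SW and LFD mice 3 were called both without LFD 406 and without SW 407.

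The share of all counts that fell on these genes in adipocytes was 0.717% ± 0.126 for LFD mice, 0.486% ± 0.0328 for HFD mice and 0.771% ± 0.0532 for SW mice. The 3 HFD libraries, from 0.458% to 0.522%, lay below every LFD and SW library, the lowest of which held 0.606%. For the transferases alone it was 0.243% ± 0.0352, 0.0956% ± 0.0141 and 0.166% ± 0.0180, in the same order. For the peroxidases it was 0.286% ± 0.0838, 0.176% ± 0.0146 and 0.302% ± 0.0341. For the peroxiredoxins it was 0.187% ± 0.00929, 0.214% ± 0.00501 and 0.303% ± 0.0391. Prdx1 alone set this order of the peroxiredoxins, as without it they took 0.116% ± 0.00419, 0.0828% ± 0.0155 and 0.109% ± 0.00579, with all HFD libraries lowest as for the other families. Of 18 transferases tested between HFD and LFD mice 16 were called lower and 0 higher, where 25.0% and 26.5% of all genes were. DESeq2 and limma-voom also called 0 higher, and by edgeR 0 were higher at an unadjusted p-value under 0.05. The median of the transferases was -1.19. Of 5 peroxidases 3 were called lower (4 by DESeq2 and limma-voom), with a median of -0.46, and of 6 peroxiredoxins 2 were called higher and 2 lower, with a median of -0.25.

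**Figure D1:**
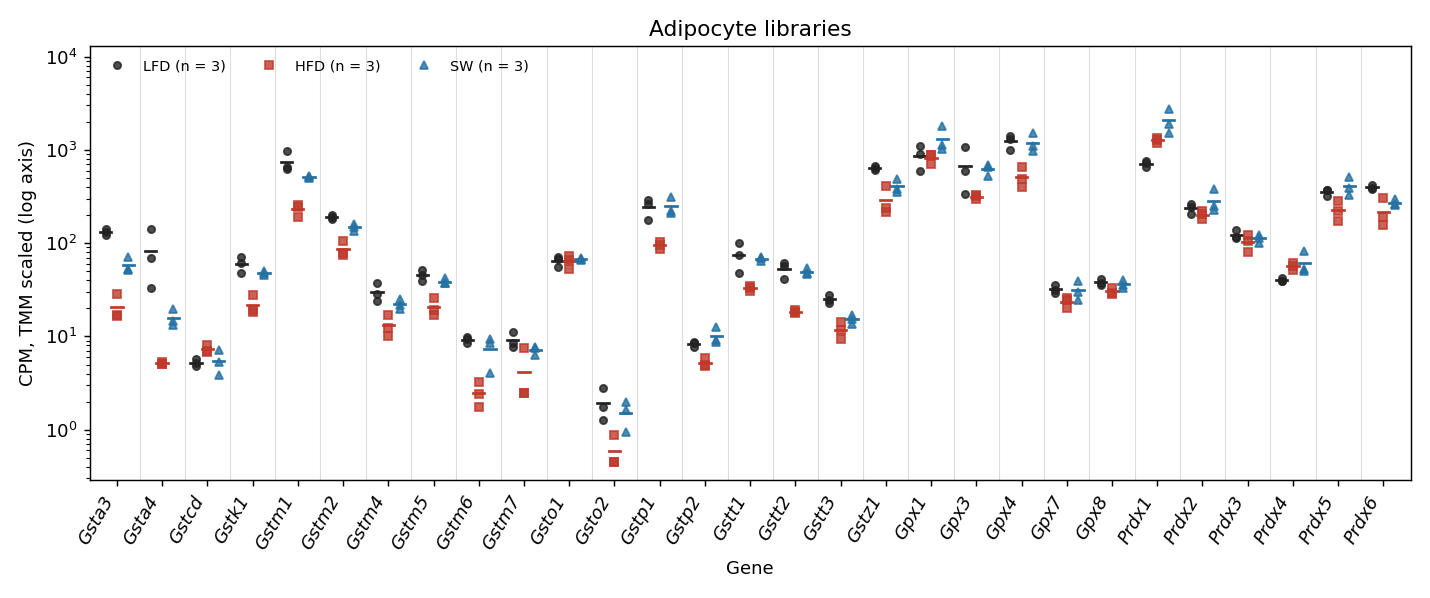
Each tested gene in each adipocyte library, as TMM-scaled CPM on a log axis, coloured by diet.

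**Figure D2:**
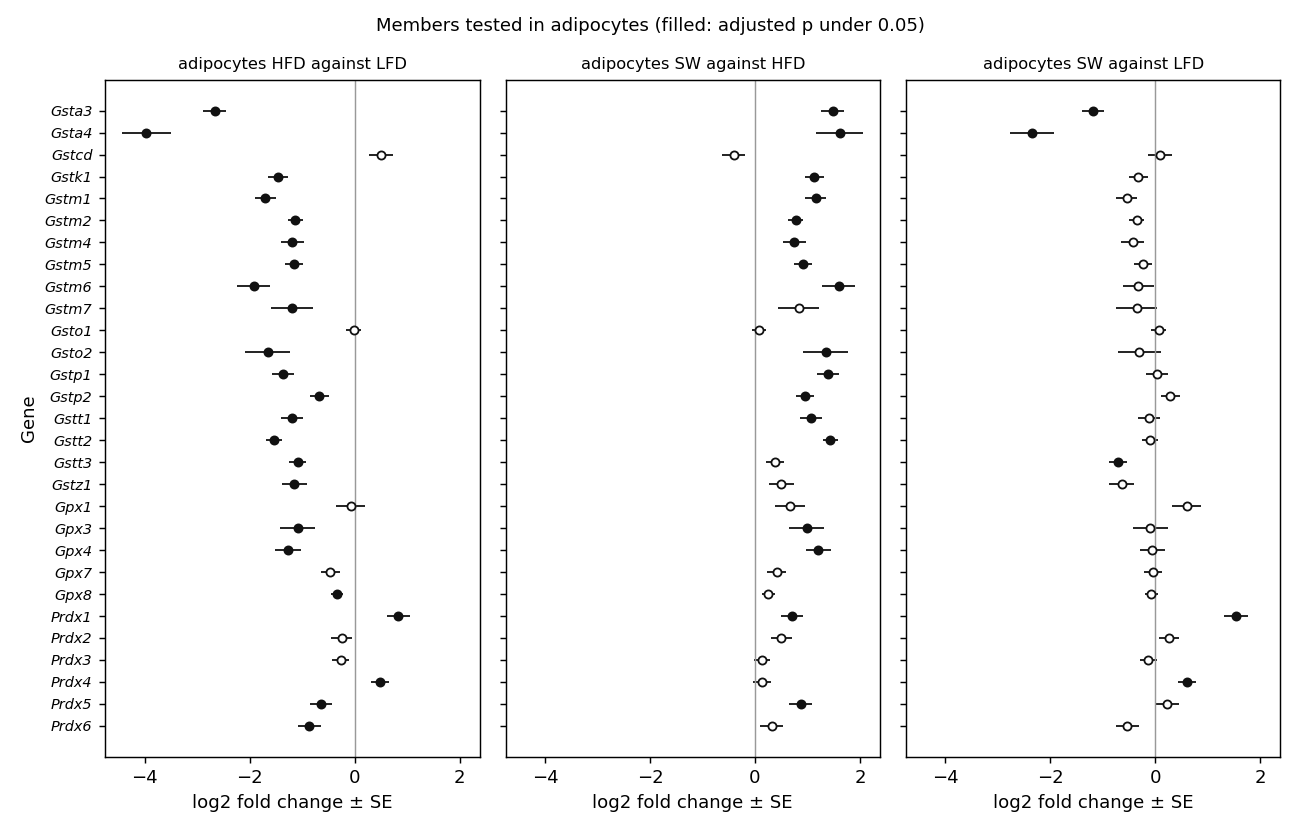
Log2 fold change with its standard error, derived from the quasi-likelihood F, of each gene tested in adipocytes, for the 3 comparisons of diets. Filled points have an edgeR adjusted p-value under 0.05, and the comparisons share libraries.

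The alpha class showed the largest falls of the 29 genes between LFD and HFD adipocytes. Gsta4 (ENSMUSG00000032348), which conjugates the lipid aldehyde hydroxynonenal, stood at 69.5, 33.2 and 143 in LFD, 5.11, 5.09 and 5.36 in HFD and 13.1, 14.8 and 19.7 CPM in SW libraries. The HFD libraries lay together far below the others, the SW libraries above them and below every LFD library, and the LFD libraries differed among themselves, with LFD 406 highest and LFD 405 lowest. The log2 fold change of Gsta4 was -3.97 (SE 0.46, adjusted p 0.000104) between HFD and LFD mice, within -4.35 to -3.28 over 15 alternatives that all kept the call. It was 1.61 (SE 0.45, adjusted p 0.0234) between SW and HFD and -2.35 (SE 0.43, adjusted p 0.00423) between SW and LFD mice. The Gsta4 call between SW and HFD was lost without HFD 401, HFD 402, HFD 403 or SW 409, at 1.43 to 1.62 (adjusted p 0.0823, 0.0641, 0.0807 and 0.0637). No filter, at 1.57 (adjusted p 0.0961), also ended that call. Gsta3 (ENSMUSG00000025934), an alpha-class enzyme that also isomerizes steroids, stood at 124, 133 and 141 in LFD, 16.7, 28.7 and 16.9 in HFD and 51.4, 70.6 and 52.4 CPM in SW libraries. No library of one diet overlapped with another diet, and SW libraries lay between the HFD and LFD libraries. Its log2 fold changes were -2.67 (SE 0.22, adjusted p 1.65e-05) between HFD and LFD, 1.48 (SE 0.22, adjusted p 0.00398) between SW and HFD and -1.19 (SE 0.21, adjusted p 0.00381) between SW and LFD mice. Gsta1 and Gsta2, the other alpha-class genes, reached at most 7 counts each in an adipocyte library and were not tested there.

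Of the mu class, which lies on chromosome 3 with all 7 of its genes, Gstm1 (ENSMUSG00000058135), an abundant enzyme of broad substrate range, stood at 621, 659 and 970.0 in LFD, 190.3, 246 and 254 in HFD and 517, 529 and 496 CPM in SW libraries. The HFD libraries were lowest, and the SW libraries lay above them and below every LFD library. Its log2 fold change was -1.70 (SE 0.20, adjusted p 0.000109) between HFD and LFD and 1.16 (SE 0.20, adjusted p 0.00561) between SW and HFD mice. Gstm2, its neighbour on the chromosome, stood at 180.1, 198 and 189 in LFD, 75.4, 105 and 79.2 in HFD and 162, 134 and 147 CPM in SW libraries, with the same order of the groups and no overlap. Its log2 fold changes were -1.13 (adjusted p 0.000193) and 0.77 (adjusted p 0.00704), in the same order. Gstm4 stood at 24.1, 28.8 and 37.4 in LFD, 10.1, 16.9 and 12.4 in HFD and 19.7, 21.9 and 25.3 CPM in SW libraries. Gstm5, the mouse counterpart of a form known from testis and brain, stood at 38.9, 52.0 and 45.6 in LFD, 25.8, 19.1 and 17.0 in HFD and 37.0, 41.8 and 37.5 CPM in SW libraries. For both genes every HFD library lay below all others, while SW and LFD libraries overlapped. Gstm4 had log2 fold changes of -1.19 (adjusted p 0.00137) between HFD and LFD and 0.75 (adjusted p 0.0256) between SW and HFD mice. For Gstm5 they were -1.15 (adjusted p 0.000407) and 0.92 (adjusted p 0.00668). The Gstm4 call between SW and HFD was lost without HFD 401, HFD 403 or SW 409, at 0.59 to 0.70 (adjusted p 0.0850, 0.0924 and 0.0760).

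Gstm6 and Gstm7 were scarce mu-class genes. Gstm6 averaged 9.25 ± 0.695 CPM in LFD, 2.47 ± 0.745 CPM in HFD and 7.29 ± 2.79 CPM in SW mice, with HFD below all other libraries. Its log2 fold changes were -1.92 (adjusted p 0.000835) between HFD and LFD and 1.60 (adjusted p 0.00799) between SW and HFD mice. Gstm7 averaged 9.14 ± 1.73 CPM in LFD, 4.18 ± 2.95 CPM in HFD and 7.19 ± 0.773 CPM in SW mice. All 3 HFD libraries lay below the LFD libraries, at -1.19 (adjusted p 0.0287), but HFD 401 lay within the range of the SW libraries. Between SW and HFD mice limma-voom called 6 of the 6 mu-class genes tested higher and DESeq2 5, while edgeR did not call Gstm7. Its call between HFD and LFD was lost without HFD 402, HFD 403 or LFD 405, at adjusted p 0.0981, 0.112 and 0.111, and kept without HFD 401, at -1.89. Gstm3 reached 1 count at most in an adipocyte library. Of the 6 mu-class genes tested, 6 were called lower in HFD than LFD mice (25.0% of all genes) by edgeR. It called 5 higher in SW than HFD mice (15.6% of all genes) and 0 between SW and LFD mice (10.9% higher and 6.18% lower of all genes). Between SW and LFD mice 2 were lower at an unadjusted p-value under 0.05 by edgeR, and DESeq2 called 1 and limma-voom 0. Reads that fit several similar transcripts were divided among them by the counting tool RSEM. The split of counts among the close paralogs of the mu class, between Gsta1 and Gsta2, between Gstp1 and Gstp2 and between Prdx6 and Prdx6b is uncertain.

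Gstp1, the main pi-class enzyme, stood at 176, 265 and 289 in LFD, 85.9, 103 and 95.0 in HFD and 312, 223 and 211 CPM in SW libraries. Gstp2, its close paralog, was far scarcer, at 7.61, 8.67 and 8.57 in LFD, 4.81, 4.97 and 5.86 in HFD and 12.5, 8.77 and 9.23 CPM in SW libraries. For both, every HFD library lay below all others. The SW and LFD libraries overlapped for Gstp1, whereas for Gstp2 each SW library lay above each LFD library without a call. The log2 fold change of Gstp1 was -1.36 (adjusted p 0.000561) between HFD and LFD and 1.40 (adjusted p 0.00425) between SW and HFD mice. For Gstp2 it was -0.67 (adjusted p 0.0113) and 0.95 (adjusted p 0.00693).

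The theta class, which acts on small halogenated compounds and on organic hydroperoxides, lies on chromosome 10 with all 4 of its genes. Gstt1 stood at 48.2, 75.5 and 99.2 in LFD, 34.6, 30.4 and 33.2 in HFD and 64.8, 71.1 and 69.2 CPM in SW libraries. Gstt2 stood at 40.9, 57.0 and 60.9 in LFD, 19.1, 17.6 and 18.2 in HFD and 47.4, 53.9 and 46.9 CPM in SW libraries. Both had their HFD libraries close together and below every other library, with overlap between SW and LFD. Gstt1 had log2 fold changes of -1.18 (adjusted p 0.00124) between HFD and LFD and 1.06 (adjusted p 0.00805) between SW and HFD mice. For Gstt2 they were -1.54 (adjusted p 3.69e-05) and 1.44 (adjusted p 0.00125). Gstt3 stood at 22.8, 24.4 and 27.7 in LFD, 14.4, 9.35 and 11.7 in HFD and 13.5, 16.8 and 15.4 CPM in SW libraries, where SW libraries overlapped with HFD and lay below all LFD libraries. It was called lower in HFD than in LFD mice, at -1.09 (adjusted p 0.00059), and lower in SW than in LFD mice, at -0.71 (adjusted p 0.0171), and was not called between SW and HFD mice. The Gstt3 call between SW and LFD was lost without LFD 406 or SW 407, at -0.63 (adjusted p 0.0653 and 0.0505). Gstt4 reached at most 11 counts in an adipocyte library and was not tested there.

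Gstk1, the kappa-class enzyme of mitochondria and peroxisomes, also known for aiding the assembly of adiponectin, stood at 47.7, 61.4 and 70.9 in LFD, 19.2, 28.0 and 18.4 in HFD and 50.4, 45.5 and 48.4 CPM in SW libraries. Its HFD libraries lay below all others. The log2 fold change of Gstk1 was -1.45 (adjusted p 0.000186) between HFD and LFD and 1.13 (adjusted p 0.00518) between SW and HFD mice. Gstz1, the zeta-class enzyme that isomerizes maleylacetoacetate in the breakdown of tyrosine, stood at 667, 605 and 632 in LFD, 217, 407 and 236 in HFD and 352, 378 and 487 CPM in SW libraries. Each LFD library exceeded every HFD and SW library, and the HFD and SW libraries overlapped through HFD 402. By edgeR Gstz1 was called between HFD and LFD mice alone, at -1.15 (adjusted p 0.00311). DESeq2 also called Gstz1 lower in SW than LFD mice, and limma-voom did not. Of the omega class, which reduces dehydroascorbate, Gsto1 averaged 64.9 ± 8.32 CPM in LFD, 63.9 ± 10.1 CPM in HFD and 67.6 ± 1.64 CPM in SW mice and was called in no comparison of diets. Gsto2 was near the limit of detection, with 1.93 ± 0.766, 0.592 ± 0.247 and 1.52 ± 0.529 CPM in the same order, no overlap of HFD with the other diets, and log2 fold changes of -1.66 (adjusted p 0.00960) between HFD and LFD and 1.35 (adjusted p 0.0375) between SW and HFD mice. The Gsto2 call between SW and HFD was lost without HFD 401, HFD 403, SW 408 or SW 409, at 1.11 to 1.31 (adjusted p 0.108, 0.139, 0.126 and 0.0853). Gstcd, a less studied protein with a transferase-like domain, averaged 5.22 ± 0.460 CPM in LFD, 7.31 ± 0.682 CPM in HFD and 5.47 ± 1.63 CPM in SW mice and was not called, though its HFD libraries lay above the LFD libraries.

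Among the peroxidases, Gpx4 (ENSMUSG00000075706), which reduces phospholipid hydroperoxides within membranes and restrains ferroptosis, stood at 996, 1299.5 and 1419 in LFD, 399, 651 and 493 in HFD and 1509, 963 and 1095 CPM in SW libraries. Every HFD library lay below all LFD and SW libraries, which overlapped. Its log2 fold change was -1.27 (SE 0.24, adjusted p 0.00197) between HFD and LFD and 1.21 (SE 0.24, adjusted p 0.00861) between SW and HFD mice. Gpx3, which is secreted and circulates in plasma, stood at 334, 594 and 1074 in LFD, 320.0, 299.5 and 326 in HFD and 662, 682 and 526 CPM in SW libraries, so that LFD libraries spread widely and LFD 404 lay just above the highest HFD library. It was called lower in HFD than LFD mice, at -1.08 (adjusted p 0.0219), and higher in SW than HFD mice, at 0.98 (adjusted p 0.0489). The first of these Gpx3 calls was lost without HFD 401, HFD 402, HFD 403 or LFD 406, at -1.11 to -0.56 (adjusted p 0.0556, 0.0657, 0.0625 and 0.0912). The second was called under 5 of 15 alternatives and was lost without HFD 401, HFD 402, HFD 403, SW 407, SW 408 or SW 409, at 0.90 to 1.09 (adjusted p 0.117, 0.118, 0.128, 0.0965, 0.114 and 0.0639). limma-voom, at 0.97 (adjusted p 0.0570), RLE factors, at 0.98 (adjusted p 0.0514), no filter, at 0.94 (adjusted p 0.0782), and GC correction, at 0.83 (adjusted p 0.0835), also ended that call. Gpx1, the cytosolic enzyme that reduces hydrogen peroxide, stood at 593, 897 and 1114 in LFD, 708, 881 and 889 in HFD and 1808, 1011 and 1120.1 CPM in SW libraries. SW 407 was by far the highest, HFD and LFD libraries overlapped, and Gpx1 was called in no comparison of diets by edgeR. Between SW and HFD mice DESeq2 called 3 of the 5 peroxidases tested higher, against 2 by edgeR and 1 by limma-voom.

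Gpx7 and Gpx8 act in the endoplasmic reticulum. Gpx7 stood at 28.9, 36.0 and 31.8 in LFD, 20.4, 25.7 and 24.4 in HFD and 39.4, 24.7 and 30.0 CPM in SW libraries, with HFD below LFD in all libraries but without a call (adjusted p 0.0501), though 4 of 15 alternatives called it lower. Gpx8 stood at 35.5, 37.7 and 41.5 in LFD, 33.4, 29.1 and 28.6 in HFD and 35.5, 40.1 and 33.1 CPM in SW libraries. HFD libraries lay below the LFD libraries, and Gpx8 was called at -0.33 (adjusted p 0.0388) between them. The Gpx8 call was lost without HFD 402, HFD 403, LFD 405 or LFD 406, at -0.34 to -0.27 (adjusted p 0.123, 0.161, 0.0864 and 0.135). No filter, at -0.28 (adjusted p 0.142), also ended that call. The other peroxidases were near or at 0 in adipocytes. Gpx2, the form of the gut lining, had at most 2 counts in a library, Gpx6, known from olfactory tissue, at most 1, and Gpx5, the form secreted by the epididymis, 9 counts in LFD 404, 1 in LFD 405, 1 in SW 408 and 2 in SW 409. In the HFD adipocyte libraries all 3 had 0 counts, and a 0 there allows up to 0.245, 0.126 and 0.135 CPM before TMM scaling.

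Prdx1 (ENSMUSG00000028691), a cytosolic peroxiredoxin that is reduced by thioredoxin, went the other way from most of these genes. It stood at 653, 723 and 765 in LFD, 1287, 1186 and 1331 in HFD and 2775, 1896 and 1532 CPM in SW libraries. Each HFD library exceeded each LFD library, and each SW library exceeded both, with SW 407 highest. Its log2 fold change was 0.83 (SE 0.22, adjusted p 0.00998) between HFD and LFD, 0.71 (SE 0.22, adjusted p 0.0345) between SW and HFD and 1.53 (SE 0.22, adjusted p 0.00112) between SW and LFD mice. The first and the last of these were called under all 15 alternatives. The Prdx1 call between SW and HFD was lost without HFD 401, HFD 402, HFD 403, SW 407 or SW 408, at 0.44 to 0.75 (adjusted p 0.0889, 0.0927, 0.101, 0.0748 and 0.0553). No filter, at 0.66 (adjusted p 0.0526), and these groups alone, at 0.71 (adjusted p 0.0578), also ended that call. Prdx4, the form of the secretory pathway, stood at 39.3, 42.4 and 39.6 in LFD, 56.4, 60.6 and 52.2 in HFD and 81.8, 53.1 and 50.6 CPM in SW libraries. LFD libraries were lowest, SW 407 was highest, and Prdx4 was called higher than in LFD mice both in HFD, at 0.48 (adjusted p 0.0405), and in SW mice, at 0.61 (adjusted p 0.0377). The call in HFD mice was lost without HFD 401, HFD 402, HFD 403, LFD 404, LFD 405 or LFD 406, at 0.44 to 0.54 (adjusted p 0.0837, 0.0991, 0.0614, 0.0910, 0.0773 and 0.101). Upper-quartile factors, at 0.38 (adjusted p 0.0699), and GC correction, at 0.42 (adjusted p 0.0775), also ended that call. The call in SW mice was lost without LFD 404, LFD 405, LFD 406 or SW 407, at 0.36 to 0.65 (adjusted p 0.0951, 0.0847, 0.109 and 0.0549). These groups alone, at 0.63 (adjusted p 0.0588), also ended that call.

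Prdx6, which has a single active cysteine, uses glutathione and also acts as a phospholipase, stood at 417, 389 and 382 in LFD, 157, 307 and 190.3 in HFD and 258, 262 and 297 CPM in SW libraries. LFD libraries lay above all others, and HFD 402 exceeded every SW library. By edgeR Prdx6 was called between HFD and LFD mice alone, at -0.86 (adjusted p 0.00876). Prdx5, found in mitochondria, peroxisomes and cytosol, stood at 319.5, 367 and 368 in LFD, 171, 284 and 220.5 in HFD and 518, 331 and 387 CPM in SW libraries, with every HFD library below all others. It was called at -0.64 (adjusted p 0.0297) between HFD and LFD and at 0.87 (adjusted p 0.0162) between SW and HFD mice. The Prdx5 call between HFD and LFD was lost without HFD 401, HFD 403, LFD 405 or LFD 406, at -0.62 to -0.48 (adjusted p 0.100, 0.0858, 0.0840 and 0.0787). GC correction, at -0.47 (adjusted p 0.0618), also ended that call. The Prdx5 call between SW and HFD was lost without HFD 401 or HFD 403, at 0.70 to 0.84 (adjusted p 0.0569 and 0.0656). Prdx2, another cytosolic form, stood at 205, 246 and 265 in LFD, 181, 219 and 203 in HFD and 376, 229 and 252 CPM in SW libraries. Prdx3, the mitochondrial form, stood at 118, 114 and 138 in LFD, 81.3, 122 and 105 in HFD and 101, 122 and 114 CPM in SW libraries. HFD and LFD libraries overlapped for both, and neither was called in a comparison of diets by edgeR. Between SW and HFD mice DESeq2 called 3 of the 6 peroxiredoxins tested higher, against 2 by edgeR and 2 by limma-voom. Prdx6b reached at most 7 counts in an adipocyte library, and Prdx2-rs3, annotated as a processed pseudogene, had 0 counts in all 15 libraries.

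Marker genes of other cell types moved between the same adipocyte libraries. All 11 macrophage markers, led by Lyz2, were called higher in HFD than in LFD mice, with a median of 3.36, and all 11 higher in SW than in LFD mice, with a median of 3.00, while 4 of 11 were lower in SW than in HFD mice. Of the 8 adipocyte markers 5 were called lower in HFD than LFD mice, with a median of -0.94, 3 were higher in SW than HFD mice, with a median of 0.57, and 0 were called between SW and LFD mice by edgeR, with a median of -0.36, 1 at an unadjusted p-value under 0.05, 2 by DESeq2 and 0 by limma-voom. Of 6 fibroblast and progenitor markers, led by Col3a1, 3 were called higher in HFD than LFD mice, with sums of 1565 to 2388 CPM in LFD, 5012 to 6924 CPM in HFD and 3123 to 3577 CPM in SW libraries. Of 5 mesothelial markers, led by Upk3b, 3 were called lower in HFD than LFD mice, with sums of 62.7 to 96.1, 10.8 to 30.8 and 20.6 to 32.6 CPM. The 5 erythroid markers, led by Hbb-bs, were all called lower in HFD than LFD mice, with sums of 2133 to 3206, 612 to 761 and 1316 to 2135 CPM. Of 5 endothelial markers, led by Pecam1, 4 were called lower in HFD than LFD mice, with sums of 1193 to 1503, 604 to 1164 and 599 to 779.5 CPM. Sums of the T cell markers, led by Cd3d, of the B cell markers, led by Cd79b, of the epididymal markers, led by Crisp1, and of the germ cell markers, led by Prm2, were at most 31.9, 25.9, 9.36 and 11.6 CPM in any adipocyte library, and of these Rnase9 alone was at 0 in all 9. Between SW and HFD mice 4 of 5 erythroid, 2 of 4 B cell, 1 of 5 T cell and 2 of 2 germ cell markers tested were called higher and 2 of 6 fibroblast and progenitor markers lower, and between SW and LFD mice 5 of 5 endothelial, 3 of 5 erythroid and 2 of 5 mesothelial markers lower and 1 of 6 fibroblast and progenitor and 1 of 2 germ cell markers higher. Of the 2 germ cell markers 1 was also called lower in HFD than LFD mice. The part of these cells in the results was not tested.

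**Figure D3:**
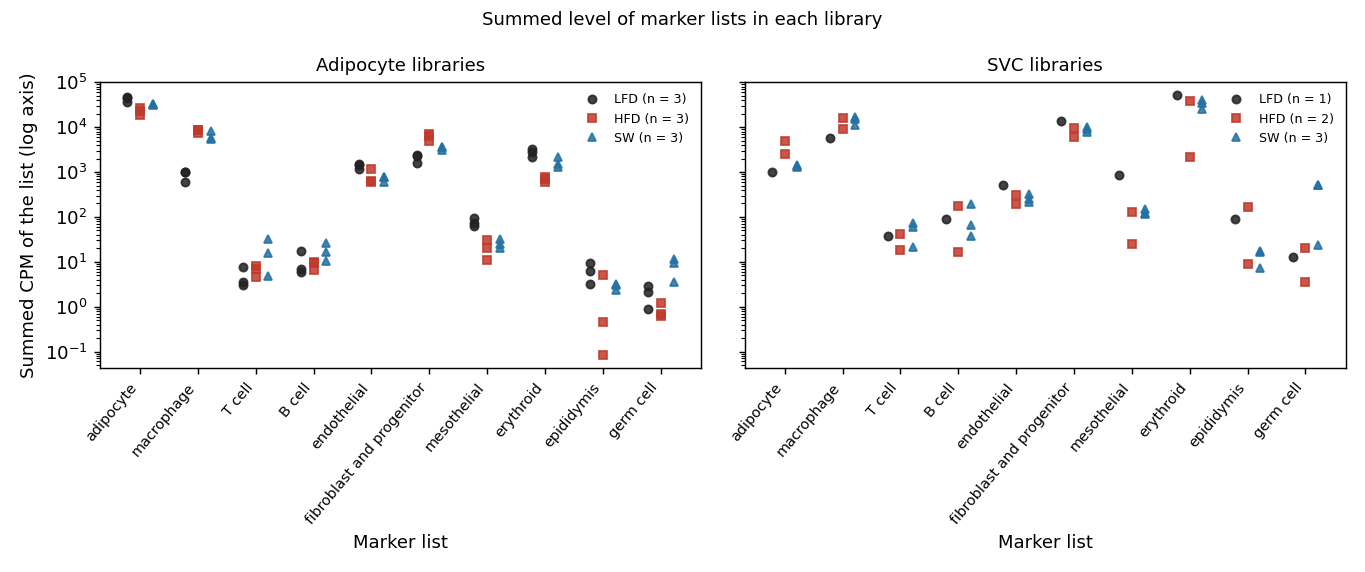
Summed CPM of each marker list in each library of the adipocytes and of the SVC, on a log axis.

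In the SVC 32 of the 38 genes passed the filter, and only SW and HFD mice were compared by a test. Of the 32, 8 were called higher in SW than HFD mice, where 5.71% of all 16319 genes were, and 0 lower, where 11.7% were. Their median log2 fold change was 1.04, or 0.89 with Gpx5, at 0 counts in HFD and 1 in SW mice, held at 3 in each, against 0.03 for all genes. By DESeq2 18 were called higher and 0 lower, by limma-voom 7 and 0, and by edgeR 18 of the 32 were higher and 0 lower at an unadjusted p-value under 0.05. Of genes with at least 10 counts in every library, 10 of 28 were called higher and 0 lower, against 966 and 2381 of all 11319. Their median was 0.71, against -0.04 for all genes. That leaves out Gpx5, high in the LFD library alone, and Gstt4, Gsto2 and Prdx6b, high in SW 412 and SW 413 alone. The calls depended on single libraries. Without HFD 212 edgeR called 5, and without HFD 411 it called 19, where the lone HFD library is assumed to vary like the other groups, and the median of all genes moved to 0.15 and 0.12. Without SW 412 or without SW 413 it called 0 of these genes and 0 of all genes, with 16 and 17 of the 32 at an unadjusted p-value under 0.05, so each SVC call below ends without either, and other tools were not run without a library. With a correction for GC content it also called 0 of these and 0 of all genes, with 15 of the 32 at an unadjusted p-value under 0.05. Over all genes 932 were called higher and 1917 lower, against 2473 and 2749 by DESeq2, 275 and 228 without HFD 212, 2772 and 3441 without HFD 411 and 495 and 98 without SW 414. No called gene of the 38 changed direction in any of these fits.

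The share of all counts that fell on these genes was 1.21% in the LFD library (95% Wilson interval 1.21% to 1.22%), 0.458% in HFD 212 (0.454% to 0.461%), 0.379% in HFD 411 (0.376% to 0.382%) and 0.869% ± 0.0345 in the SW libraries. Both HFD libraries thus lay below all others. Peroxiredoxins alone made up 0.0784% of counts in the LFD library (0.0761% to 0.0807%), 0.182% in HFD 212 (0.180% to 0.185%), 0.124% in HFD 411 (0.123% to 0.126%) and 0.133% ± 0.0189 in the SW libraries. Without Prdx1 the share was 0.0625%, 0.0552%, 0.0542% and 0.0824% ± 0.00646, so the low LFD value rested on that gene. With 1 LFD library the differences from LFD mice in the SVC have no replicate check and were not tested.

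Of the mu class, 4 of 6 genes were called higher in SW than HFD mice (5.71% of all genes), with a median of 1.92. Gstm1 stood at 3615 in LFD, 206 and 246 in HFD and 1276, 1034 and 1326 CPM in SW libraries. Gstm2 stood at 527 in LFD, 60.6 and 66.1 in HFD and 226, 214 and 271 CPM in SW libraries. Gstm5 stood at 105 in LFD, 14.1 and 31.0 in HFD and 204, 207 and 111 CPM in SW libraries. Both HFD libraries were lowest for all 3 genes, the LFD library was highest for Gstm1 and Gstm2, and SW 412 and SW 413, which hold the germ cell markers given below, were highest for Gstm5. The log2 fold changes between SW and HFD mice were 2.42 (SE 0.30, adjusted p 0.0362) for Gstm1, 1.90 (SE 0.24, adjusted p 0.0362) for Gstm2 and 2.95 (SE 0.48, adjusted p 0.0362) for Gstm5. Gstm7 stood at 56.4 in LFD, 2.09 and 4.83 in HFD and 12.2, 13.8 and 13.7 CPM in SW libraries, and its log2 fold change was 1.94 (adjusted p 0.0381). The Gstm5 call was lost without HFD 212, at 2.56 (adjusted p 0.0513). The Gstm7 call was lost without SW 414, at 1.91 (adjusted p 0.0687). Gstm4 stood at 58.3 in LFD, 8.87 and 18.8 in HFD and 36.4, 30.0 and 37.5 CPM in SW libraries. Gstm6 stood at 14.3 in LFD, 1.33 and 2.48 in HFD and 4.12, 5.50 and 6.03 CPM in SW libraries. They were likewise lowest in HFD libraries but were not called by edgeR. DESeq2 called 6 of the 6 mu-class genes tested higher in SW mice, and limma-voom 4. Over all 16319 genes DESeq2 called 2473 higher and limma-voom 573, which applies to the counts of each class and family below as well.

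Of the theta class, Gstt1 stood at 171 in LFD, 37.2 and 33.9 in HFD and 144, 133 and 142 CPM in SW libraries. Gstt3 stood at 71.2 in LFD, 12.8 and 16.8 in HFD and 43.2, 34.8 and 42.2 CPM in SW libraries. The HFD libraries lay below all others for both genes, and the LFD library was highest. The log2 fold change between SW and HFD mice was 1.97 (SE 0.20, adjusted p 0.0362) for Gstt1 and 1.44 (SE 0.24, adjusted p 0.0362) for Gstt3. The Gstt3 call was lost without HFD 212 or SW 414, at 1.33 to 1.40 (adjusted p 0.0540 and 0.0620). Gstt2, at 28.3 in LFD, 16.9 and 21.7 in HFD and 37.9, 31.0 and 33.8 CPM in SW libraries, was not called by edgeR. DESeq2 called 4 of the 4 theta-class genes tested higher in SW mice, and limma-voom 2. Gstp1 stood at 381 in LFD, 87.7 and 155 in HFD and 283, 207 and 309 CPM in SW libraries. Gstp2 stood at 23.6 in LFD, 7.65 and 12.2 in HFD and 19.4, 16.7 and 30.2 CPM in SW libraries. Both HFD libraries were again lowest. The pi class had no call by edgeR and limma-voom, while DESeq2 called 2 of its 2 genes higher in SW mice.

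The remaining transferases were not called between SW and HFD SVC by edgeR. DESeq2 called 1 of the 2 alpha-class genes tested and 1 of the 2 omega-class genes higher in SW mice, and limma-voom 0 of each. Gsta3 stood at 17.1 in LFD, 6.26 and 19.9 in HFD and 14.4, 10.7 and 20.6 CPM in SW libraries. Gsta4 stood at 31.3 in LFD, 1.97 and 4.28 in HFD and 7.32, 7.07 and 8.65 CPM in SW libraries. HFD 212 was lowest for both, and the LFD library was highest for Gsta4. Gstk1 stood at 23.2 in LFD, 5.91 and 11.7 in HFD and 12.8, 11.3 and 17.2 CPM in SW libraries. Gstz1 stood at 26.0 in LFD, 16.4 and 52.6 in HFD and 43.1, 32.4 and 54.0 CPM in SW libraries. For these 2 genes HFD 212 was lowest and HFD 411 lay within the range of the SW libraries. Gsto1 stood at 29.7 in LFD, 32.8 and 52.0 in HFD and 53.7, 34.4 and 61.9 CPM in SW libraries. Gstcd stood at 3.14 in LFD, 5.45 and 4.28 in HFD and 2.99, 3.68 and 3.18 CPM in SW libraries. HFD and SW libraries overlapped for Gsto1, and both HFD libraries were highest for Gstcd. Gsta1, Gsta2 and Gstm3 reached at most 2, 14 and 9 counts in an SVC library and were not tested in this fraction.

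Gpx3 was the peroxidase with a call by edgeR, at 5115 in LFD, 563 and 417 in HFD and 3151, 3199 and 3213 CPM in SW libraries. The HFD libraries were lowest by far, the SW libraries lay close together, and the LFD library was highest. Its log2 fold change between SW and HFD mice was 2.70 (SE 0.33, adjusted p 0.0362), called under 11 of 14 alternatives. Gpx1 stood at 596 in LFD, 771 and 1299 in HFD and 1549.7, 1098 and 1298 CPM in SW libraries. Gpx4 stood at 444 in LFD, 176 and 607 in HFD and 739, 597 and 541 CPM in SW libraries. HFD and SW libraries overlapped for both through HFD 411. Gpx7 stood at 37.5 in LFD, 23.5 and 25.1 in HFD and 40.1, 37.0 and 50.7 CPM in SW libraries. Gpx8 stood at 28.8 in LFD, 34.6 and 25.0 in HFD and 21.5, 18.8 and 26.8 CPM in SW libraries. The HFD libraries were lowest for Gpx7, HFD and SW overlapped for Gpx8, and neither was called by edgeR. DESeq2 called 2 of the 6 peroxidases tested higher in SW mice, and limma-voom 1.

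Of the peroxiredoxins in SVC, Prdx6 stood at 137 in LFD, 71.1 and 74.5 in HFD and 151, 113 and 156 CPM in SW libraries, with both HFD libraries lowest. It was called at 0.94 (SE 0.23, adjusted p 0.0437) under 8 of 14 alternatives, and the call was lost without HFD 212 or SW 414, at 0.86 to 0.98 (adjusted p 0.0979 and 0.111). limma-voom, at 0.94 (adjusted p 0.0510), also ended that call. Prdx1 stood at 160.5 in LFD, 966 and 859.8 in HFD and 564, 328 and 675 CPM in SW libraries, so that both HFD libraries lay above the SW libraries and the LFD library was lowest, without a call. Prdx2 stood at 209 in LFD, 156 and 237 in HFD and 324, 249.6 and 354 CPM in SW libraries. Prdx3 stood at 29.5 in LFD, 32.6 and 52.8 in HFD and 38.1, 31.7 and 41.1 CPM in SW libraries. HFD 212 was lowest for Prdx2, and HFD 411 was highest for Prdx3. Prdx4 stood at 57.6 in LFD, 52.7 and 90.8 in HFD and 92.1, 74.3 and 119 CPM in SW libraries. Prdx5 stood at 197 in LFD, 106 and 209.7 in HFD and 299, 203 and 267 CPM in SW libraries. HFD 212 was lowest for both, and none of these 4 was called by edgeR. DESeq2 called 2 of the 7 peroxiredoxins tested higher in SW mice, and limma-voom 0.

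**Figure D4:**
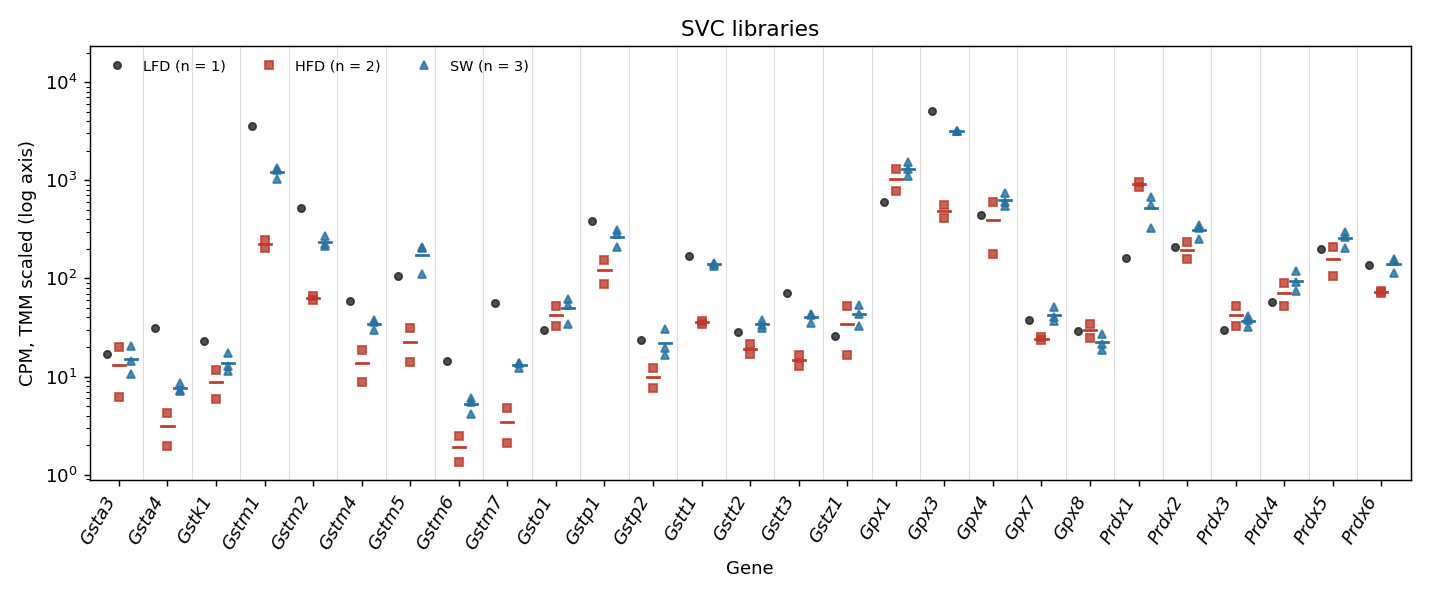
Genes that averaged at least 10 CPM in 1 diet group of the SVC and had a count in each library, as TMM-scaled CPM on a log axis. LFD has 1 library and HFD has 2.

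Some scarce genes were high in single SVC libraries. Gstt4 stood at 0 in LFD, 0.0580 and 0.828 in HFD and 16.2, 17.6 and 1.31 CPM in SW libraries, Gsto2 at 0.524 in LFD, 0.406 and 1.24 in HFD and 12.9, 15.3 and 1.86 CPM in SW libraries and Prdx6b at 0 in LFD, 0.0580 and 1.10 in HFD and 11.8, 17.4 and 0.876 CPM in SW libraries. All 3 were high in SW 412 and SW 413 and low in SW 414, and none was called between SW and HFD mice by edgeR. By DESeq2 all 4 theta-class genes tested, with Gstt4, were higher in SW mice, and so were 1 of 2 omega-class genes and 2 of 7 peroxiredoxins. By limma-voom it was 2, 0 and 0, in the same order. The germ cell markers, led by Prm2, summed to 505 and 524 CPM in the same SW 412 and SW 413, to 23.3 CPM in SW 414, 3.59 and 20.3 CPM in the HFD libraries and 12.9 CPM in the LFD library, where Tnp1 and Ddx4 were at 0. Of these 4 markers edgeR and limma-voom called 0 between SW and HFD mice and DESeq2 2, with 4 higher at an unadjusted p-value under 0.05. Gpx5 had 374 counts in the LFD library, or 65.3 CPM, against 1 count in SW 412 and 0 in the other 4 SVC libraries. A count of 0 there allows up to 0.229 and 0.168 CPM before TMM scaling in the HFD libraries and 0.135 and 0.296 CPM in SW 413 and SW 414. The 9 epididymal markers summed to 89.8 CPM in that LFD library, to 8.99 and 164 CPM in the HFD libraries and to 16.8, 17.6 and 7.12 CPM in the SW libraries, with Crisp1 most abundant overall and Spint4 at 0 in the LFD library. Of these markers Adam7, Lcn8, Lcn9 and Rnase10 were highest in the LFD library, Crisp1, Lcn5, Rnase9 and Spint4 in HFD 411 and Cst8 in SW 413, and Cst8 alone was called, higher in SW than HFD mice. Gpx2 had 5 counts in the LFD library and 0 in the other SVC libraries, and Gpx6 had 2 counts there, 9 in SW 413 and 0 in the others. The part of epididymal or germ cells in these values was not tested.

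Marker sums of other cells also differed between the SVC libraries, here in the order LFD 236, HFD 212, HFD 411, SW 412, SW 413 and SW 414. The macrophage sum, led by Lyz2, was 5773, 9221, 16035, 15115, 11077 and 16573 CPM, and 1 of 11 markers was called between SW and HFD mice, lower in SW. The fibroblast and progenitor sum, led by Col3a1, was 13702, 9412, 6033, 7631, 9887 and 9249.6 CPM, with 1 of 6 called lower. The mesothelial sum, led by Upk3b, was 842, 25.0, 126, 122, 118 and 153 CPM, and the erythroid sum, led by Hba-a2, 52616, 2192, 38293, 34479.5, 25529 and 39892 CPM, with 0 of 5 called in each by edgeR, DESeq2 and limma-voom and 0 at an unadjusted p-value under 0.05 by edgeR. Both sums were lowest in HFD 212 and highest in the LFD library, but Hbb-bs was highest in HFD 411 and Hbb-bt in SW 414, and Wt1 was higher in HFD 212 than in HFD 411 and the SW libraries. The endothelial sum, led by Tie1, was 513, 309.8, 191, 319, 249 and 219.5 CPM, with 1 of 5 called higher, and of the 8 adipocyte markers Lpl and Fabp4 were called lower in SW. The median of the 8 was 0.63, with 0 called higher by edgeR and limma-voom, 4 by DESeq2, and 4 higher and 3 lower at an unadjusted p-value under 0.05. The T cell sum, led by Cd4, was 37.5, 18.4, 42.2, 59.6, 21.0 and 75.0 CPM, and the B cell sum, led by Cd79a, 92.2, 16.8, 179, 66.2, 37.3 and 196 CPM, with 0 called by edgeR, DESeq2 and limma-voom and 0 at an unadjusted p-value under 0.05 by edgeR. The part of these cells in the results was not tested.

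To compare the fractions, all 15 libraries were fitted together, and the CPM in this and the next paragraph are scaled over both fractions. In SW mice 6 of 34 genes tested were called higher in adipocytes than SVC, where 32.8% of all 17441 genes were, and 14 lower, where 35.6% were, with a median of -0.47 against -0.09 for all genes. The lower calls include Gstt4, Gsto2 and Prdx6b, which were high in SW 412 and SW 413 SVC alone. Of genes with at least 10 counts in every library, 6 of 28 were called higher and 11 lower, against 4155 and 3856 of all 10631. Their median was -0.14, against 0.07 for all genes. In HFD mice 4 of 34 were called higher (12.9% of all genes) and 4 lower (16.2% of all genes), with a median of -0.30 against -0.08. The median of all genes in SW mice was -0.15 with RLE factors, and that in HFD mice -0.18 with upper-quartile factors, where 4 and 6 of the 34 were called higher and lower. Gstz1, with the largest fold change of the genes called higher in either diet, stood in SW mice at 313, 338 and 438 CPM in adipocytes and 50.6, 39.7 and 64.4 CPM in SVC, and in HFD mice at 193, 370.3 and 213 CPM in adipocytes and 17.4 and 62.2 CPM in SVC. No adipocyte library overlapped with SVC, and the log2 fold change was 2.82 (SE 0.40, adjusted p 3.44e-05) in SW and 2.71 (SE 0.46, adjusted p 0.00133) in HFD mice. Also higher in adipocytes of both diets were Gstk1, at 1.39 (adjusted p 0.000577) and 0.98 (adjusted p 0.0330), Prdx3, at 1.19 (adjusted p 0.000318) and 0.93 (adjusted p 0.0136), and Prdx6, at 0.54 (adjusted p 0.0435) and 1.27 (adjusted p 0.00369), in SW and HFD mice. All adipocyte libraries lay above all SVC libraries of the same diet for these genes. Gsta3, at 1.53 (adjusted p 0.00291), and Prdx1, at 1.57 (adjusted p 0.000158), were called higher in SW and not in HFD mice, and the difference between the diets was called for Prdx1, as given below, and not for Gsta3.

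The genes called lower in adipocytes than SVC in SW mice were Gpx3, Gpx7, Gstm1, Gstm2, Gstm4, Gstm5, Gstm7, Gsto2, Gstp2, Gstt1, Gstt3, Gstt4, Prdx4 and Prdx6b. Gpx3 had the lowest adjusted p-value but for Gstt3, and stood at 590.1, 609 and 472 CPM in adipocytes and 3701, 3912 and 3832 CPM in SVC. Gstm5 stood at 33.0, 37.3 and 33.7 CPM in adipocytes and 239.9, 253 and 132 CPM in SVC. No adipocyte library reached the lowest SVC library for either. The log2 fold change was -2.78 (SE 0.34, adjusted p 1.02e-05) for Gpx3, -2.59 (SE 0.32, adjusted p 1.09e-05) for Gstm5, -1.66 (SE 0.22, adjusted p 2.16e-05) for Gstm1 and -1.81 (SE 0.20, adjusted p 3.86e-06) for Gstt3. For the others but Gstt4, Gsto2 and Prdx6b it ran from -1.54 (adjusted p 0.000156) for Gstp2 to -0.86 (adjusted p 0.00141) for Gpx7, with all SVC libraries higher, and Gstt4, Gsto2 and Prdx6b were at most 0.643, 1.77 and 0.450 CPM in SW adipocytes. In SVC these 3 were at 13.8 CPM or more in SW 412 and SW 413, the libraries with the germ cell markers above, and at 1.57, 2.22 and 1.05 CPM in SW 414. In HFD mice Gstp2, at -1.25 (adjusted p 0.00653), and Gstt3, at -0.65 (adjusted p 0.0361), were called lower in adipocytes, with both SVC libraries above the adipocyte libraries. The other 2 lower calls there, of Gstt4 and Prdx6b, rest on 12 and 16 counts in HFD 411 SVC, against 1 count each in HFD 212 SVC and in all HFD adipocytes, and are not read as a difference. Without HFD 402 adipocytes 3 of the 34 were called in HFD mice and without HFD 403 adipocytes 5, with 12 without HFD 212 SVC and 6 without HFD 411 SVC. Without a filter on low counts 5 of 37 were called.

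Some of the calls between fractions were lost when a library was left out. In SW mice the Gstm7 call was lost without SW 407 adipocytes, at -1.11 (adjusted p 0.0518). The Prdx6 call there was lost without SW 408 adipocytes, SW 409 adipocytes or SW 413 SVC, at 0.47 to 0.57 (adjusted p 0.0699, 0.122 and 0.0715). DESeq2, at 0.48 (adjusted p 0.0522), RLE factors, at 0.48 (adjusted p 0.0707), and upper-quartile factors, at 0.50 (adjusted p 0.0539), also ended that call. In HFD mice the Gstk1 call was lost without HFD 402 adipocytes or HFD 212 SVC, at 0.51 to 0.76 (adjusted p 0.117 and 0.200). These groups alone, at 0.97 (adjusted p 0.127), also ended that call. The Prdx3 call there was lost without HFD 402 adipocytes or HFD 212 SVC, at 0.57 to 0.79 (adjusted p 0.0525 and 0.0734). These groups alone, at 0.93 (adjusted p 0.0963), also ended that call. Without HFD 411 SVC, Gstk1 and Prdx3 kept the call at 1.66 and 1.42. The Gstp2 call there was lost without HFD 411 SVC, at -0.78 (adjusted p 0.106). The Gstt3 call there was lost without HFD 402 adipocytes, HFD 403 adipocytes or HFD 411 SVC, at -0.65 to -0.35 (adjusted p 0.123, 0.0859 and 0.367). No filter, at -0.63 (adjusted p 0.0579), and these groups alone, at -0.65 (adjusted p 0.143), also ended that call. Those of Gstt4 and Prdx6b were made under 5 of 12 and 6 of 12 alternatives. The number of calls thus rested on single libraries more in HFD than in SW mice, where between 19 and 21 genes were called without any one library.

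A correction for GC content changed the comparison of fractions. In SW mice it ended the calls of Gpx7, at 0.14 (adjusted p 0.519), and Gsta3, at -0.16 (adjusted p 0.755), with the opposite sign, and those of Prdx1, at 0.05 (adjusted p 0.898), Prdx3, at 0.22 (adjusted p 0.463), Prdx6, at 0.35 (adjusted p 0.192), Gstm4, at -0.34 (adjusted p 0.243), and Gstm7, at -0.63 (adjusted p 0.158). Calls were kept, with values moved by over 1.5 times, for Gpx3, at -1.72, Gstm1, at -0.89, Gstm2, at -0.68, Gstp2, at -0.67, Gstt1, at -0.51, and Prdx4, at -1.66. In HFD mice it ended those of Prdx3, at 0.56 (adjusted p 0.183), Gstt3, at -0.44 (adjusted p 0.126), and Gstt4, at -4.36 (adjusted p 0.0595). A fit of the HFD libraries alone called 1 of 29 genes higher and 2 lower, and Prdx6, at 1.26 (adjusted p 0.0558), was not among them.

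The change from HFD to SW was compared between the fractions as an interaction, that is the log2 fold change in adipocytes minus that in SVC. Of 34 genes 1 was called with a larger value in adipocytes, where 15.7% of all genes were, and 6 with a larger value in SVC, where 11.4% were. The 6 were Gpx3, at -1.84 (SE 0.49, adjusted p 0.0146), Gstm5, at -2.12 (SE 0.47, adjusted p 0.00604), Gstm1, at -1.36 (SE 0.33, adjusted p 0.00917), Gstm2, at -1.23 (SE 0.26, adjusted p 0.00480), Gstt3, at -1.16 (SE 0.29, adjusted p 0.0112), and Gstt1, at -1.02 (SE 0.31, adjusted p 0.0266). In both fractions these genes were higher in SW than HFD libraries, but by more in SVC, except that Gstt3 overlapped between SW and HFD adipocytes. The exception in direction was Prdx1, at 1.41 (SE 0.39, adjusted p 0.0172), which was higher in every SW than in every HFD library of adipocytes and lower in every SW than in every HFD library of SVC. Under all 20 alternatives the calls of Gstm2 and Gstm5 alone were kept, and no fit left out both SW 412 and SW 413, the SVC libraries highest for Gstm5 and for germ cell markers. The correction for GC content ended the other 5, those of Gpx3, at -1.19 (adjusted p 0.135), Gstm1, at -0.89 (adjusted p 0.0655), Gstt1, at -0.44 (adjusted p 0.368), Gstt3, at -0.79 (adjusted p 0.0621), and Prdx1, at 0.36 (adjusted p 0.651). These 5 differences thus depend on that setting. The Gstt1 call was lost without HFD 401 adipocytes, HFD 403 adipocytes, SW 407 adipocytes, HFD 212 SVC, HFD 411 SVC, SW 414 SVC or SW 412 SVC, at -1.01 to -0.91 (adjusted p 0.0529, 0.0549, 0.0651, 0.0715, 0.0539, 0.0559 and 0.0648). The Gstt3 call was lost without HFD 212 SVC, at -0.90 (adjusted p 0.0522). The other 27 genes had no called difference between the fractions, which does not show that they changed alike.

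Levels of different genes were set side by side as CPM per kilobase of the longest transcript annotated as principal. Where none was so annotated, the longest transcript was used. The order of genes depends on this choice of length, which for Prdx1 was 2294 bases. In LFD adipocytes Gpx4 had the highest mean, 1291 CPM per kilobase, followed by Gpx1 with 809.7, Gstm1 with 582, Gpx3 with 419 and Gstz1 with 383. In HFD adipocytes the order was Gpx1 with 770.3, Prdx1 with 553 and Gpx4 with 536. In SW adipocytes it was Gpx4 with 1240.1, Gpx1 with 1225 and Prdx1 with 901. In SVC the highest were Gpx3, with 3209 in the LFD library and 1999.7 in SW mice, Gstm1, with 2805 and 940.0, and Gpx1, with 556 and 1227. In HFD SVC Gpx1 led with 965. Single libraries departed from these orders, with Gstz1 above Gpx3 in LFD 404, Gpx4 above Prdx1 in HFD 402 and Gpx1 above Gpx4 in SW 407.

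Of other genes of glutathione, thioredoxin and related pathways, taken from lists of textbook members, 71 were found and 70 were tested in adipocytes. Between HFD and LFD mice 20 were called higher and 21 lower (26.5% and 25.0% of all genes), with a median of -0.09 against -0.03 for all genes. Between SW and HFD mice 20 were higher and 5 lower (15.6% and 15.9%), with a median of 0.25, and between SW and LFD mice 16 were higher and 2 lower (10.9% and 6.18%), with a median of 0.09. In the SVC 8 of 71 were higher and 5 lower in SW than in HFD mice (5.71% and 11.7%), with a median of 0.24. In the comparison of fractions 32 were higher and 24 lower in adipocytes than in SVC of SW mice (32.8% and 35.6%), and 16 higher and 9 lower in HFD mice (12.9% and 16.2%). The percentages are the shares of all genes called, which apply to the counts of each list below as well.

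In glutathione synthesis and recycling, 4 of 22 genes were called higher and 9 lower in HFD than LFD adipocytes, with a median of -0.34. Gclc, the catalytic subunit of the enzyme that makes the first step, averaged 17.5 ± 1.74 CPM in LFD, 25.4 ± 2.40 CPM in HFD and 20.5 ± 4.94 CPM in SW mice, and its partner Gclm 34.3 ± 2.56, 53.3 ± 1.83 and 52.1 ± 6.49 CPM. Both were higher in every HFD than every LFD library, at 0.54 (adjusted p 0.0257) and 0.64 (adjusted p 0.00151), and Gclm also in SW against LFD mice, at 0.61 (adjusted p 0.00605). The Gclc call was lost without HFD 401, HFD 403 or LFD 405, at 0.46 to 0.55 (adjusted p 0.0799, 0.0643 and 0.104). Upper-quartile factors, at 0.45 (adjusted p 0.0662), also ended that call. Gss, which completes glutathione, averaged 25.0 ± 2.40, 23.6 ± 1.82 and 32.3 ± 2.57 CPM in LFD, HFD and SW mice, and Gsr, which regenerates it, 46.0 ± 5.60, 40.6 ± 1.30 and 60.4 ± 9.09 CPM. Neither was called between HFD and LFD mice, and both were higher in SW than HFD mice in all libraries, at 0.45 (adjusted p 0.0198) for Gss and 0.57 (adjusted p 0.0137) for Gsr. The Gss call was lost without HFD 401 or HFD 403, at 0.40 to 0.41 (adjusted p 0.0758 and 0.0907). That of Gsr was lost without HFD 401 or HFD 403, at 0.54 to 0.57 (adjusted p 0.0522 and 0.0585). Slc7a11, the cystine transporter, was at most 3.48 CPM in every adipocyte library and was not called. Of the glutaredoxins, Glrx was higher in HFD than LFD mice, at 1.38 (adjusted p 0.00022), and Glrx5, of mitochondrial iron-sulfur assembly, lower, at -1.64 (adjusted p 0.000279), with no overlap of libraries. Cbs, which starts cysteine synthesis from homocysteine, averaged 6.22 ± 1.17, 1.33 ± 0.368 and 3.94 ± 0.907 CPM and was lower in all HFD than LFD libraries, at -2.20 (adjusted p 0.000193).

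In the thioredoxin cycle, 3 of 10 genes were called higher and 2 lower in HFD than LFD adipocytes (26.5% and 25.0% of all genes), with a median of -0.10. Txnrd1, which reduces thioredoxin, stood at 60.3, 52.1 and 55.4 in LFD, 126, 108 and 130.1 in HFD and 80.6, 98.3 and 92.6 CPM in SW libraries. Srxn1, which restores overoxidized peroxiredoxins, stood at 37.3, 34.3 and 29.5 in LFD, 102, 93.7 and 107 in HFD and 112, 105 and 92.3 CPM in SW libraries. Every HFD and SW library lay above every LFD library for both genes, as it did for Sesn1. In HFD against LFD mice the log2 fold changes were 1.12 (adjusted p 7.74e-05) for Txnrd1, 1.58 (adjusted p 1.38e-05) for Srxn1 and 1.31 (adjusted p 5.44e-05) for Sesn1. Between SW and LFD mice they were 0.70 (adjusted p 0.00368), 1.61 (adjusted p 5.42e-05) and 0.61 (adjusted p 0.0121) for the same genes. Between SW and HFD mice Txnrd1 was lower in all libraries, at -0.42 (adjusted p 0.0273), and so was Sesn1, at -0.70 (adjusted p 0.00763). That Txnrd1 call was lost without HFD 401, HFD 403, SW 407 or SW 409, at -0.44 to -0.34 (adjusted p 0.0758, 0.0983, 0.0650 and 0.0576). These groups alone, at -0.41 (adjusted p 0.0535), also ended that call. Txn1 stood at 201, 269.6 and 257 in LFD, 250.1, 254 and 265 in HFD and 702, 356 and 310.1 CPM in SW libraries, where HFD and LFD libraries overlapped and SW 407 was far above the others. It was higher in SW than HFD mice, at 0.83 (adjusted p 0.0435), and than LFD mice, at 0.91 (adjusted p 0.0475). The first Txn1 call was lost without HFD 401, HFD 402, HFD 403 or SW 407, at 0.38 to 0.84 (adjusted p 0.113, 0.0987, 0.117 and 0.0918). limma-voom, at 0.77 (adjusted p 0.0535), no filter, at 0.79 (adjusted p 0.0533), and these groups alone, at 0.84 (adjusted p 0.0650), also ended that call. The second was lost without LFD 404, LFD 405, LFD 406 or SW 407, at 0.46 to 0.99 (adjusted p 0.136, 0.0908, 0.105 and 0.0742). Upper-quartile factors, at 0.84 (adjusted p 0.0502), and these groups alone, at 0.93 (adjusted p 0.0821), also ended that call.

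Of the transcription factor NRF2, its partner KEAP1 and textbook targets, 10 of 18 genes were called higher and 2 lower in HFD than LFD adipocytes, with a median of 0.47, and 8 higher and 0 lower in SW than LFD mice (10.9% and 6.18%), with a median of 0.44. For the lower calls between SW and LFD mice DESeq2 and limma-voom also gave 0, and by edgeR 0 of the 18 were lower at an unadjusted p-value under 0.05. Nfe2l2, which encodes NRF2, averaged 102 ± 4.23 CPM in LFD, 122 ± 5.98 CPM in HFD and 119 ± 2.94 CPM in SW mice and was higher in all HFD than LFD libraries, at 0.27 (adjusted p 0.0442). Keap1, which targets NRF2 for degradation, averaged 59.1 ± 2.47, 45.4 ± 0.563 and 54.7 ± 4.19 CPM and was lower in all HFD libraries, at -0.38 (adjusted p 0.00843). No filter, at -0.33 (adjusted p 0.0547), and GC correction, at -0.14 (adjusted p 0.194), ended the Keap1 call. The Nfe2l2 call was lost without HFD 401, HFD 403, LFD 404, LFD 405 or LFD 406, at 0.23 to 0.29 (adjusted p 0.134, 0.120, 0.0728, 0.149 and 0.0744). Upper-quartile factors, at 0.17 (adjusted p 0.172), no filter, at 0.32 (adjusted p 0.0793), GC correction, at 0.21 (adjusted p 0.0990), and these groups alone, at 0.25 (adjusted p 0.0583), also ended that call. Hmox1, which degrades heme, stood at 58.5, 58.9 and 37.6 in LFD, 199, 229.5 and 271 in HFD and 272, 232 and 199.5 CPM in SW libraries. Its HFD and SW libraries overlapped and lay above all LFD libraries, at 2.17 (adjusted p 3.3e-05) between HFD and LFD and 2.18 (adjusted p 0.000101) between SW and LFD mice. Nqo1, a quinone reductase, averaged 9.42 ± 2.30, 6.39 ± 0.980 and 10.2 ± 1.66 CPM, and was called lower in HFD than LFD mice, at -0.57 (adjusted p 0.0448), though HFD 401 lay above LFD 404, and higher in all SW than HFD libraries, at 0.68 (adjusted p 0.0345). The first Nqo1 call was lost without HFD 402, HFD 403, LFD 405 or LFD 406, at -0.58 to -0.40 (adjusted p 0.113, 0.168, 0.104 and 0.177). No filter, at -0.52 (adjusted p 0.0826), also ended that call. The second was lost without HFD 401, HFD 402, HFD 403, SW 407 or SW 408, at 0.56 to 0.79 (adjusted p 0.0522, 0.0885, 0.145, 0.0728 and 0.118). Ftl1, the light chain of ferritin, was higher in all HFD than LFD libraries, at 1.26 (adjusted p 0.00221).

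Of the superoxide dismutases and catalase, 0 of 4 were called higher and 1 lower in HFD than LFD adipocytes. DESeq2 and limma-voom also called 0 higher, and they called 1 and 2 lower. By edgeR 0 of the 4 were higher at an unadjusted p-value under 0.05. Sod1, the cytosolic dismutase, stood at 426, 562 and 687 in LFD, 283, 376 and 308 in HFD and 663, 521 and 523 CPM in SW libraries, with every HFD library lowest. It was called at -0.79 (adjusted p 0.00878) between HFD and LFD and at 0.82 (adjusted p 0.0164) between SW and HFD mice. The second Sod1 call was lost without HFD 401 or HFD 403, at 0.73 to 0.77 (adjusted p 0.0649 and 0.0726). Sod2, of mitochondria, averaged 191 ± 13.2, 142 ± 40.2 and 186 ± 24.2 CPM, Sod3, which is secreted, 462 ± 32.7, 335 ± 127 and 436 ± 52.8 CPM, and Cat 462 ± 45.4, 461 ± 93.5 and 441 ± 47.3 CPM, in LFD, HFD and SW mice, without a call by edgeR. In SVC Sod3 stood at 1006 in LFD, 99.6 and 138 in HFD and 563, 528 and 519 CPM in SW libraries, lowest in both HFD libraries, and was called at 2.18 (adjusted p 0.0362) between SW and HFD mice.

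The microsomal transferase family and the sigma class do not carry a symbol that starts with Gst, and 2 of 7 were called higher and 5 lower in HFD than LFD adipocytes, with a median of -0.99. Mgst1, a membrane-bound transferase and peroxidase, stood at 765, 846 and 1175 in LFD, 349, 514 and 385 in HFD and 674, 765 and 725 CPM in SW libraries. Mgst3 stood at 117, 171 and 261 in LFD, 62.2, 87.0 and 76.0 in HFD and 167, 139 and 156 CPM in SW libraries. HFD libraries lay below all others for both. In HFD against LFD mice the log2 fold changes were -1.16 (adjusted p 0.00135) for Mgst1, -1.28 (adjusted p 0.00225) for Mgst3, -0.99 (adjusted p 0.0208) for Mgst2 and -1.29 (adjusted p 0.0001) for the prostaglandin synthase Ptges, each lower in all HFD libraries. Between SW and HFD mice Mgst1 was higher in all libraries, at 0.80 (adjusted p 0.0193), as were Mgst3, at 1.03 (adjusted p 0.0155), and Ptges, at 0.92 (adjusted p 0.00501). The Mgst2 call was lost without HFD 401, HFD 403, LFD 405 or LFD 406, at -0.97 to -0.75 (adjusted p 0.0579, 0.0621, 0.0573 and 0.0769). The Mgst1 call between SW and HFD was lost without HFD 401 or HFD 403, at 0.68 to 0.73 (adjusted p 0.0740 and 0.0846). That of Mgst3 was lost without HFD 401 or HFD 403, at 0.91 to 1.03 (adjusted p 0.0618 and 0.0621). Hpgds, the sigma-class prostaglandin synthase, stood at 5.39, 2.42 and 2.11 in LFD, 118, 82.3 and 118 in HFD and 55.1, 54.4 and 46.3 CPM in SW libraries. It was higher in all HFD than LFD libraries, at 5.10 (adjusted p 6.26e-06), and in all SW than LFD libraries, at 4.07 (adjusted p 5.37e-05), and lower in SW than HFD mice, at -1.03 (adjusted p 0.0113). The last of these Hpgds calls was lost without HFD 403, at -0.97 (adjusted p 0.0508). Alox5ap, a leukotriene synthesis protein of the same superfamily, was higher in all HFD than LFD libraries, at 2.23 (adjusted p 5.37e-05), and in all SW than LFD libraries, at 2.28 (adjusted p 0.000146).

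In SVC Hpgds and Ptges moved apart between SW and HFD mice. Hpgds stood at 2.44 in LFD, 108 and 32.9 in HFD and 5.26, 13.2 and 6.79 CPM in SW libraries, with both HFD libraries highest, and was called at -3.05 (adjusted p 0.0379). Ptges stood at 163 in LFD, 31.7 and 35.3 in HFD and 101, 106 and 97.2 CPM in SW libraries, with both HFD libraries lowest, and was called at 1.60 (adjusted p 0.0362). The Hpgds call was lost without HFD 212 or SW 414, at -2.92 to -1.88 (adjusted p 0.0937 and 0.0658). Sesn1 and Sepp1 were also lower in all SW than HFD libraries of SVC, at -0.98 (adjusted p 0.0381) and -1.56 (adjusted p 0.0381). The Sesn1 call was lost without HFD 212 or SW 414, at -1.01 to -0.73 (adjusted p 0.0835 and 0.0803). The Sepp1 call was lost without HFD 212 or SW 414, at -1.68 to -1.19 (adjusted p 0.0866 and 0.0713). Corrected for GC content, where no gene was called in SVC, the log2 fold change was -0.46 for Sepp1 and -1.62 for Hpgds.

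Of 9 genes of selenocysteine insertion and of other selenoproteins, 2 were called higher and 2 lower in HFD than LFD adipocytes, with a median of 0.02, and the transfer RNA gene of the list was not found. Sepp1, the secreted selenium carrier, stood at 1147, 1343 and 1235 in LFD, 3649.9, 3264 and 4269 in HFD and 2758, 2543 and 2437 CPM in SW libraries, and Sepw1 at 474, 703 and 659 in LFD, 159, 214 and 182 in HFD and 702, 379.8 and 469 CPM in SW libraries. The groups did not overlap for Sepp1, with HFD highest and SW between, whereas HFD libraries were lowest for Sepw1. In HFD against LFD mice the log2 fold change was 1.59 (adjusted p 8.01e-05) for Sepp1 and -1.73 (adjusted p 0.000379) for Sepw1. Between SW and HFD mice it was -0.53 (adjusted p 0.0410) for Sepp1, a call lost without HFD 401, HFD 403, SW 408 or SW 409, at -0.56 to -0.44 (adjusted p 0.0836, 0.157, 0.0899 and 0.106), and 1.48 (adjusted p 0.00546) for Sepw1. No filter, at -0.57 (adjusted p 0.0692), GC correction, at -0.42 (adjusted p 0.0951), and these groups alone, at -0.52 (adjusted p 0.0709), also ended the Sepp1 call. Of the 6 exporters of glutathione conjugates 5 were tested in adipocytes, with 3 called higher in HFD than LFD mice and 0 lower, where DESeq2 and limma-voom also gave 0 lower and edgeR 0 lower at an unadjusted p-value under 0.05. Abcc3 stood at 15.4, 10.6 and 14.5 in LFD, 30.6, 29.0 and 30.4 in HFD and 15.0, 17.8 and 21.8 CPM in SW libraries, at 1.17 (adjusted p 0.00042) between HFD and LFD and -0.71 (adjusted p 0.0135) between SW and HFD mice, with HFD libraries highest. Its call between SW and HFD was lost without HFD 403, at -0.72 (adjusted p 0.0503).

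The transferases lie in clusters by class. On the GRCm38 assembly, matched by gene identifier through GENCODE M21, the 7 mu-class genes span chromosome 3 from 107895821 to 108044894 and the 4 theta-class genes chromosome 10 from 75774115 to 75837424. Gstp1, Gstp2, Gsto1 and Gsto2 lie on chromosome 19, Gsta4, Gsta1 and Gsta2 on chromosome 9, and Gsta3 on chromosome 1.

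Because most of the transferases fell together in HFD adipocytes, their promoters were searched for the core of the antioxidant response element, TGACNNNGC, on both strands. RefSeq promoters on GRCm38.p6, 250 bases before to 50 bases after a start, were given for 33 of the 38 genes, and Gsta4, Gstt2, Prdx6, Prdx6b and Prdx2-rs3 had no entry. The core was in a promoter of 4 of the 33 genes (12.12%), against 3781 of 27025 genes in all (13.99%). The 4 genes were Gsta3, Gstm5, Gstm7 and Prdx1, at chr4:116685349-116685648 on the + strand. The promoter of Prdx1 is shown, as the only gene of the 4 that rose in HFD adipocytes, 5′ to 3′ along the gene, with the match, which reads on the opposite strand, in capitals. A match is a description of these letters and not a binding site.
Prdx1: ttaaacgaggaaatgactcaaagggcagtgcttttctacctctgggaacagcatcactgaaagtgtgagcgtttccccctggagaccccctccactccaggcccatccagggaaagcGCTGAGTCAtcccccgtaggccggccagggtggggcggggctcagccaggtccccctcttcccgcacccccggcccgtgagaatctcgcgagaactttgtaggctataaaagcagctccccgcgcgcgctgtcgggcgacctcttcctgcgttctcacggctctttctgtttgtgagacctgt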

How the data were processed

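The authors deposited estimated counts per gene, made with RSEM over Bowtie2 (versions not given, mm9 in the submitters' notes), as whole numbers in 1 table per fraction. Columns were tied to diet and fraction by name, and their numbers are in no label. Of the SVC columns 3 were left out, since 2 carry a number alone and 1 a diet code that no label has. Libraries held 5781902 to 23725647 counts.

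Genes were kept by filterByExpr (minimum count 10), scaled by TMM and tested with edgeR 4.0.16 (robust quasi-likelihood) in R 4.3.3, with Benjamini-Hochberg adjustment over all genes tested and a threshold of 0.05. A joint fit of 15 libraries compared the fractions. The standard error (SE) is the size of the edgeR log2 fold change divided by the square root of its quasi-likelihood F. Alternatives were DESeq2 1.42.0, limma-voom (limma 3.58.1), RLE and upper-quartile factors, no filter, at least 10 counts in every library, no mitochondrial or hemoglobin genes, a correction for GC content, only the groups compared, and each library left out. Summaries used Python 3.11.15 with pandas 2.3.3, numpy 2.4.6, scipy 1.17.1 and matplotlib 3.10.9.

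Genes and lists were chosen with earlier results of these data known. Every tested gene of the 38 is named, and those that averaged at least 10 CPM in a diet group and were called or among the 5 highest of their family are given in every library. Of the pathway lists 20 genes fixed beforehand are named, and any called with a log2 fold change of 1 or more in size between HFD and LFD adipocytes. The 10 marker lists are those in the report.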

Additional observations from a re-analysis of the deposited data

Results flagged for a closer look

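A test of the interaction called 7 genes, given here as the log2 fold change in adipocytes minus that in SVC. It was -1.84 for Gpx3, -1.36 for Gstm1, -1.23 for Gstm2, -2.12 for Gstm5, -1.02 for Gstt1, -1.16 for Gstt3 and 1.41 for Prdx1. The calls of Gstt1 and Gstt3 were lost when single libraries were left out, and a correction for GC content ended all but those of Gstm2 and Gstm5, as given in the report. The cause was not tested.

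In the LFD SVC library, which no comparison uses, Gpx5 had 374 counts, or 64.7 CPM before TMM scaling (95% exact interval 58.3 to 71.6), and Gpx2 had 5 counts, or 0.865 CPM (0.281 to 2.02). The interval of Gpx2 includes the 0.519 CPM that a count of 0 allows there. The library has no replicate.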

How the results depend on the processing

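Of 143 calls of single genes, 2149 alternatives were computed, of which 1913 kept the direction and the call, 234 kept the direction without the call and 2 reversed without a call, Gpx7 at 0.14 and Gsta3 at -0.16 between fractions in SW with the correction for GC content. The report names the settings and libraries that ended a call, except that those for Gstt4 and Prdx6b between fractions in HFD are not all named. Of 133 tests of the 38 genes without a call, 50 were called under at least 1 alternative, and none under more than 5.

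The number of these genes called between SW and HFD SVC was 8, against 18 by DESeq2, 7 by limma-voom and 0 with a correction for GC content, where 15 had an unadjusted p-value under 0.05 by edgeR. Between adipocytes and SVC of HFD mice it was 8, against 5 without a filter on low counts and 3 in a fit of these groups alone. For the interaction it was 7, against 2 with the correction for GC content. Other alternatives to the processing gave counts within 1.5 times the reported ones. The cause was not tested.

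With 1 library left out in turn, the number called ranged from 18 to 22 between HFD and LFD adipocytes, from 11 (without HFD 403) to 16 between SW and HFD, from 3 (without LFD 406 or SW 407) to 5 between SW and LFD, from 0 (without SW 412 or SW 413, with 16 and 17 at an unadjusted p-value under 0.05) to 19 (without HFD 411) between SW and HFD SVC, from 19 to 21 between fractions in SW, from 3 (without HFD 402) to 12 (without HFD 212 SVC) between fractions in HFD and from 6 to 9 for the interaction.

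No paired analysis was possible because the columns carry none of the labels' replicate numbers. For single genes the correction for GC content and the fit of only the groups compared, and for pathway genes all alternatives, were added after seeing the data, as were both for counts in the joint fit.

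At these depths a count of 0 allows up to 0.519 CPM in the smallest library. Genes with few counts in a fraction, such as Gpx2, Gpx6, Gsta1, Gsta2 and Gstm3, were not tested there, and their diet differences cannot be told from counting noise. With 2 HFD libraries that differ from each other and 1 LFD library, the SVC comparison rests on single libraries, and no difference from LFD mice was tested there.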
